A study of Homo sapiens with 6 samples.

Results

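H3K27ac and H3K4me3 were examined at the 5 NF-kB subunit genes (NFKB1, NFKB2, REL, RELA and RELB) and at 5 genes that NF-kB induces and that act back on it (NFKBIA, NFKBIE, NFKBIZ, TNFAIP3 and BIRC3). These 10 genes, of 24131 genes with an annotated TSS, were taken by name, and a ChIP-seq region was counted where it came within 1 kb of any GENCODE TSS of the gene in GRCh37 (hg19). The libraries came from HSC3, an established human OSCC cell line, collected 72 h after transfection with a control siRNA (siCONT) or an siRNA against the lncRNA DLEU1 (siDLEU1). The peak lists hold no transcript levels, so the depletion of DLEU1 was not checked here. Each siRNA and mark had 1 library, so the values cannot be set against a spread between replicates and no test was run.

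NF-kB is a family of dimeric transcription factors built from NFKB1, NFKB2, REL, RELA and RELB. IkB proteins such as NFKBIA and NFKBIE hold the dimers in the cytoplasm until IKK marks them for degradation, after which the dimers enter the nucleus and bind kB sites. Among the genes they switch on are those of their own inhibitors, of the ubiquitin-editing enzyme TNFAIP3 (A20) and of subunits, which makes the pathway a set of feedback loops. H3K4me3 marks promoters, and H3K27ac marks promoters and enhancers in use.

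The 300 bases around the canonical TSS, 250 before it and 50 from it on, were read from the GRCh37 genome and searched on both strands for the kB consensus. At least 1 match was found in 9 of the 10 promoters, against 12.0% of the 24015 promoters of this length that could be read, and at least 2 in 5 of the 10, against 2.21%. No promoter of the 10 held 3. The genes were chosen as known parts of this feedback, so the share describes them and is not independent evidence, and a match is not a measured binding site. The promoters printed are those of NFKB2, which had the largest change in H3K27ac rank by fold enrichment, NFKBIA and TNFAIP3 as inhibitors, BIRC3, which had no H3K27ac region in siDLEU1 cells, and RELA, which held no match. They are written 5′ to 3′ on the strand of the gene, with the kB matches in capitals, and lie at chr10:104155212-104155511, chr14:35873906-35874205 (minus strand), chr6:138188146-138188445, chr11:102187965-102188264 and chr11:65430338-65430637 (minus strand).
NFKB2: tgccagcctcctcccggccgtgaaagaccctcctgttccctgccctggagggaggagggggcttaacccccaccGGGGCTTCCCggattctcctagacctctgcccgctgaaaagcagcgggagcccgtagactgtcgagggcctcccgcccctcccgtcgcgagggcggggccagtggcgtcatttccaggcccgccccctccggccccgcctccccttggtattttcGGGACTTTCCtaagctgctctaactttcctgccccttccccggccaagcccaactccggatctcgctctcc
NFKBIA: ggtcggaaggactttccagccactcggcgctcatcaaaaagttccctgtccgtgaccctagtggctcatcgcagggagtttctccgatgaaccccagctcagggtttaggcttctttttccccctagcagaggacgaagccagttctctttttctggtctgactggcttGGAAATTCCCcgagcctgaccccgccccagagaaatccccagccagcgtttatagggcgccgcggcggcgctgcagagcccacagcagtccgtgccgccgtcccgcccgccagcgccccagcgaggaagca
TNFAIP3: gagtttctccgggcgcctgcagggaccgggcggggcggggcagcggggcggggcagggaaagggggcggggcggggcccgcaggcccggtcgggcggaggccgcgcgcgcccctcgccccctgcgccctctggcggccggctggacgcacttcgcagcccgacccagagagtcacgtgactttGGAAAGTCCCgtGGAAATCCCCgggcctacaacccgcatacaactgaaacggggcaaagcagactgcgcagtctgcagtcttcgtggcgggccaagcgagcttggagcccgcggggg
BIRC3: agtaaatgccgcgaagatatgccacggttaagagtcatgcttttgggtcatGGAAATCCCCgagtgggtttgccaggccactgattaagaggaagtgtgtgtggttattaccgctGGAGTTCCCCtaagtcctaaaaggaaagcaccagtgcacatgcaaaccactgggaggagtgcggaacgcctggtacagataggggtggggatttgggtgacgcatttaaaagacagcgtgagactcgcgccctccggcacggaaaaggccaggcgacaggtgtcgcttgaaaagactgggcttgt
RELA: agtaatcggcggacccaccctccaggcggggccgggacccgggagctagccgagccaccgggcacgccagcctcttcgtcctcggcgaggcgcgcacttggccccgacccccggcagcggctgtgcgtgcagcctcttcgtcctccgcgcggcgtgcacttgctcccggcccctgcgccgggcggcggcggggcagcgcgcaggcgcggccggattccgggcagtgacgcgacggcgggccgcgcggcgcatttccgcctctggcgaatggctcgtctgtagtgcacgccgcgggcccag

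Positions of the matches are counted from the first transcribed base. In NFKB2 the matches began at −176 and −21, in TNFAIP3 at −67 and −55, in BIRC3 at −199 and −135, and in NFKBIA at −81. The match at NFKBIA reads GGAAATTCCC, and the one nearest the TSS of NFKB2 reads GGGACTTTCC. Of the promoters not shown, NFKB1 had GGGAATTTCC at −49, RELB had matches at −131 and −59, NFKBIE at −144 and NFKBIZ at −239. REL had matches at −47 and −46 that overlap each other and share all but 1 base at either end.

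The peak lists were made by the authors with MACS2, which gives each region a fold enrichment over local background. Because fold enrichment does not carry over from one list to another, a gene was scored by where its strongest region ranked in the list, as a percentile. The top region has 100, and a gene without a region has 0. The H3K27ac lists held 19705 regions in siCONT and 17672 in siDLEU1 cells, and the H3K4me3 lists 58582 and 56943. The fragments under each summit were recovered from its fold enrichment and p, which put depth at 21.5 to 29.4 M reads under an assumed genome of 2.7 Gb. All 8 epithelial markers (KRT5, KRT14, KRT17, TP63, CDH1, EPCAM, LAMB3 and ITGB4) had a region of both marks with both siRNAs. Of the markers of blood, endothelial and fibroblast cells reported here, COL1A1 had regions and PTPRC, CD3E, CDH5, COL3A1 and DCN had none.

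For H3K27ac, all 10 genes had a region in siCONT cells, at a median percentile of 76.4, and all 10 ranked lower in siDLEU1 cells, against 62.6% of the 13627 genes with a region in either list. Of the 10, 7 ranked lower by 10 points or more (NFKB1, NFKB2, REL, RELB, NFKBIE, NFKBIZ and TNFAIP3), against 36.8% of all genes. None ranked higher by 10 points or more, where 16.8% of all genes did. NFKBIA, NFKBIZ and TNFAIP3 already stood within 10 points of the top in siCONT cells, so no such rise was open to them. The median change was −18.5 points over the 10 genes and −4.55 over all. NFKBIA, at −8.18, lay just outside the 10 points, and NFKBIE, at −17.0, was the nearest inside. BIRC3, at −9.96, could not pass 10 points. It ranked at 9.96 in siCONT cells and had no siDLEU1 region, so its change is the largest fall open to it.

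In rank, H3K4me3 moved less. Of the 10 genes, 7 ranked lower by any amount, against 46.8% of 14048 genes. Only NFKB2 and BIRC3 ranked lower by 10 points or more, which is 2 of 10 beside 18.6% of all genes, a share near the background. None ranked higher by 10 points or more, against 20.2%. NFKB1, RELA, NFKBIA, NFKBIZ and TNFAIP3 already stood within 10 points of the top in siCONT cells, so no such rise was open to them. The median siCONT percentile was 90.2 over the 10 genes and 82.6 over all. The median change was −5.76 points over the 10 genes and 0.51 over all.

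**Figure D1:**
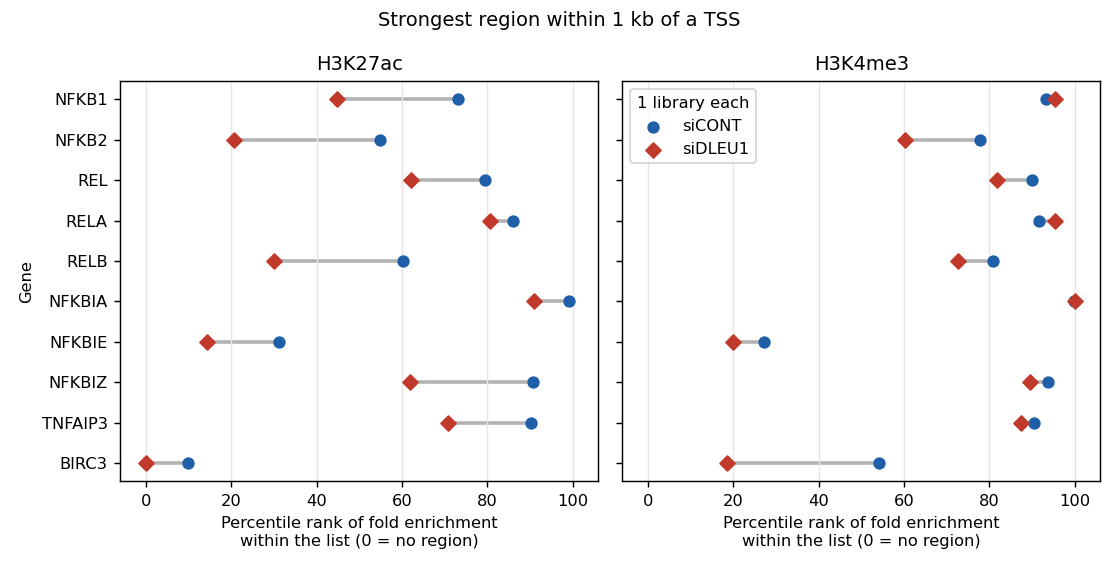
Percentile rank of fold enrichment of the strongest region within 1 kb of a TSS at each of the 10 genes, for H3K27ac (left) and H3K4me3 (right), with 1 library per point, siCONT as circles and siDLEU1 as diamonds. For H3K27ac each diamond lies left of its circle, from −5.39 points at RELA to −34.1 at NFKB2, while for H3K4me3 most pairs lie close together and BIRC3 is the widest, at −35.5.

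**Figure D2:**
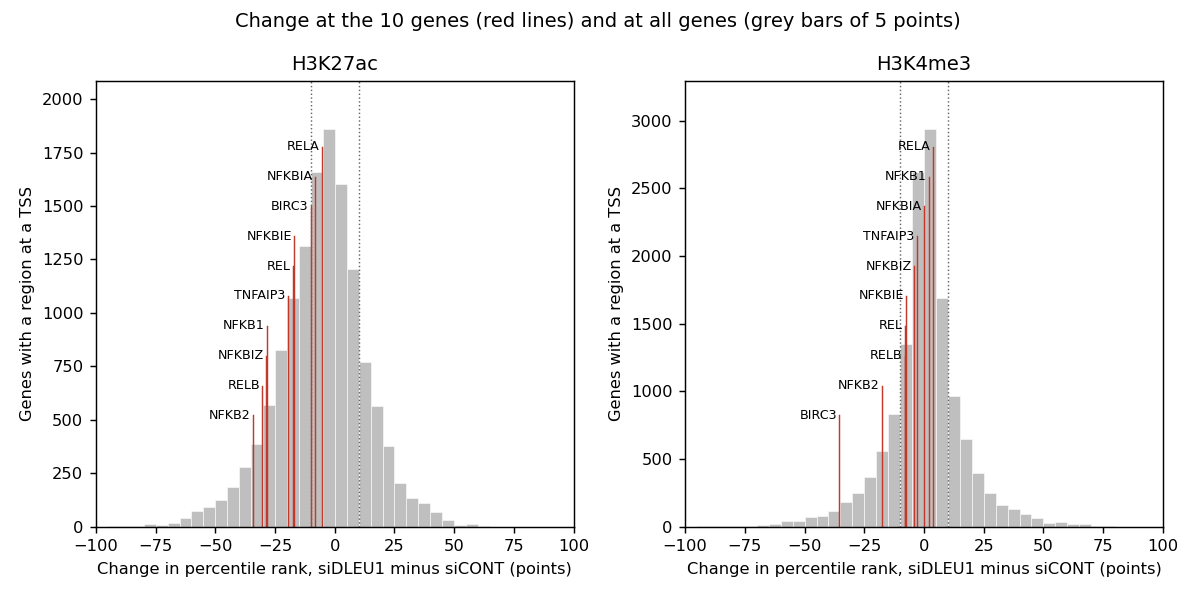
Change in percentile rank (siDLEU1 minus siCONT, points) at all genes with a region at a TSS (grey bars of 5 points, number of genes) and at the 10 genes (red lines, whose height only spaces the names), with dotted lines at 10 points either way. The H3K27ac lines all lie below 0 and within the range of the other genes, and the H3K4me3 lines gather near 0 apart from NFKB2 and BIRC3.

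A rank depends on the other regions of the list and, through fold enrichment, on the control reads at the place. The recovered number of fragments does not involve the control. When regions were ranked by it, all 10 genes again ranked lower for H3K27ac, against 70.6% of all genes, and 6 did so by 10 points or more (NFKB1, NFKB2, RELB, NFKBIA, NFKBIE and TNFAIP3), against 31.0%. The median change was then −13.0 points over the 10 genes and −4.45 over all. For H3K4me3, 8 of 10 ranked lower by fragments, against 45.7%, and 2 did so by 10 points or more, NFKB2 and BIRC3 again, against 13.2%.

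Summit coverage, the fragments at the summit in multiples of the average over the genome of the same library, was used as a level that does not depend on rank, a measure chosen after the data were seen. It was taken at the region with the most fragments, which lay at different places with the 2 siRNAs at NFKB2 (H3K27ac) and NFKBIZ (H3K4me3). For H3K4me3 at NFKB2, the siCONT summit lay in intron 2. An upstream siDLEU1 region and one in intron 2 tied there at 49 fragments, so the ratio is the same with either. For H3K27ac the ratio of siDLEU1 to siCONT coverage was below 1 at 98.7% of all genes with a region in both lists, with a median of 0.617, so a value is best read against that median. The median of the 9 genes called with both siRNAs was 0.575, and all 9 lay below the median of all genes. The quartiles of all genes were 0.561 and 0.682, and of the 9 only RELB, TNFAIP3 and NFKBIA lay below the lower one. The 9 ratios ran from 0.419 at RELB, 0.434 at TNFAIP3 and 0.451 at NFKBIA to 0.601 at NFKBIE. The 95% interval of each of the 9 ratios lay below 1, but it covers counting error only, and at RELA, with 0.583 (0.458 to 0.741), it takes in the median of all genes. The intervals of RELB, TNFAIP3 and NFKBIA were 0.279 to 0.620, 0.323 to 0.581 and 0.351 to 0.577. At RELB the upper bound lies just above the median of all genes, and at TNFAIP3 and NFKBIA below it.

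For H3K4me3 the median ratio of all genes was 1.25, and that of the 10 genes was 1.03, with 8 of 10 below the median of all. On this scale the 10 genes stood further from all genes for H3K4me3 than for H3K27ac. NFKB1 and NFKBIA had the highest ratios, both 1.36, with intervals above 1 (1.04 to 1.77 and 1.14 to 1.63). BIRC3 had the lowest, 0.636 (0.383 to 1.03). An H3K27ac ratio below 1 beside an H3K4me3 ratio above 1 was found at NFKB1, REL, NFKBIA, NFKBIE and TNFAIP3. It is also the pattern of most genes, since the H3K4me3 ratio was below 1 at 18.6% of all genes. Both marks are scaled to their own library, so the levels are not those of an absolute standard.

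**Figure D3:**
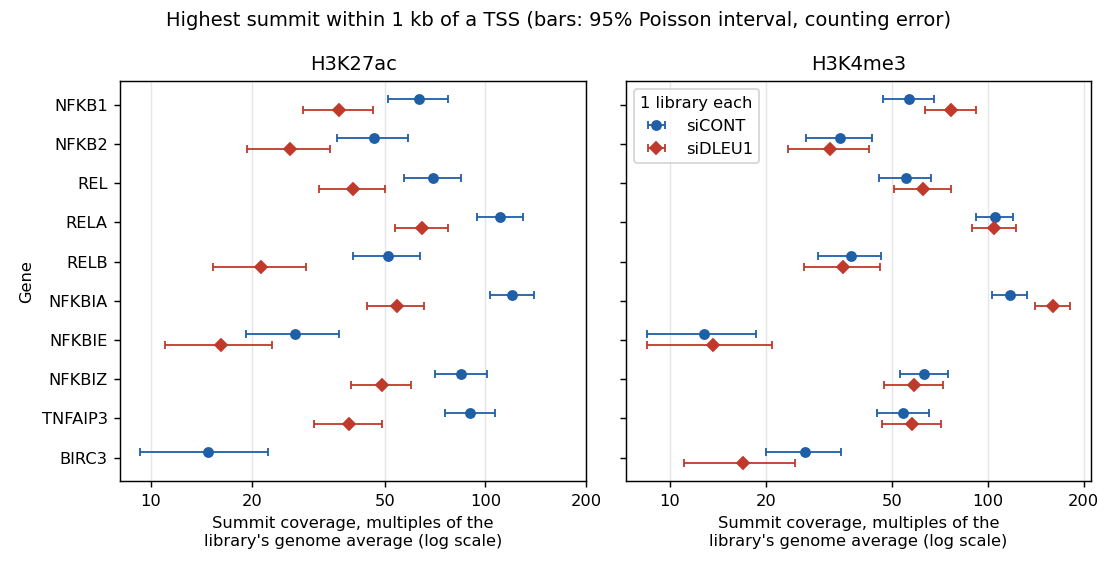
Summit coverage at the 10 genes in multiples of the genome average of the library (log scale), H3K27ac left and H3K4me3 right, siCONT as circles and siDLEU1 as diamonds, 1 library each, with bars for the 95% Poisson interval of the fragments, which is counting error only. H3K27ac coverage is lower in siDLEU1 cells at all 9 genes called with both siRNAs, as from 120 to 54.3 at NFKBIA, and BIRC3 has a siCONT point alone.

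Among the subunits, NFKB2, which encodes the p100 precursor of the p52 subunit of the non-canonical pathway, had the largest H3K27ac change in rank by fold enrichment. Its percentile was 54.9 in siCONT cells and 20.7 in siDLEU1 cells. In siCONT cells a region of 1614 bp ran from −1622 to −9 bp of the canonical TSS, and another of 499 bp, with its summit in intron 2, ran from 111 to 609 bp. In siDLEU1 cells the upstream stretch was called as 574 and 385 bp, and the region from 111 to 609 bp was not called. Its summit had 69 fragments in siCONT cells. The 2 strongest regions therefore lay at different places, and at the 1 TSS at the 5′ end of the gene the change was −49.9 points. There the upstream region of 1614 bp ranked at 51.9, and its siDLEU1 part of 574 bp at 2.05. Their summits had 68 and 50 fragments, a coverage of 45.7 and 26.1, beside a local background of 0.561 and 2.0 control fragments. By fragments, over all TSSs, the change at NFKB2 was −15.7 points, less than at RELB, TNFAIP3 and NFKBIE.

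H3K4me3 at NFKB2 ranked lower too, with a summit coverage of 34.2 and 31.9. The ratio was 0.932 (0.635 to 1.36), where that of H3K27ac was 0.562 (0.383 to 0.821). A region of 2037 bp spanned the canonical TSS in siCONT cells, with 72 fragments at its summit and a percentile of 77.8. In its place siDLEU1 cells had 3 regions of 399, 363 and 325 bp, none over the TSS. The region of 325 bp, in intron 2, had 49 fragments and ranked at 52.6. The local background at the intron 2 summit was 0.532 control fragments in siCONT and 1.0 in siDLEU1 cells. The strongest siDLEU1 region, at percentile 60.1, lay at another annotated TSS, with its summit 3767 bp past the canonical one. The kB match at −21 was inside a region of both marks in siCONT cells and inside none in siDLEU1 cells, where the nearest region ended 104 bp away for H3K27ac and 64 bp away for H3K4me3.

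RELB, the partner of p52, had 1 region of each mark, over exon 1 and the start of intron 1. H3K27ac had 76 fragments in siCONT and 41 in siDLEU1 cells, the percentile was 60.2 and 29.9, and the width was 429 and 270 bp. The control reads at this place gave the genome background with both siRNAs (0.497 and 0.439 control fragments), and the change by fragments, −31.5 points, was close to that by fold enrichment, −30.3. H3K4me3 ranked at 80.7 and 72.6, with 78 and 54 fragments, and its coverage was 37.03 and 35.1. RELB was thus lower in H3K27ac on every scale used, while its H3K4me3 coverage ratio was 0.949 (0.658 to 1.36). Its kB matches lay outside the regions, at least 76 bp away.

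NFKB1 encodes the p105 precursor of p50. Its H3K27ac percentile was 73.2 and 44.8, but the strongest region lay in intron 1 in siCONT cells and at the TSS in siDLEU1 cells. The intron 1 region itself had 94 and 70 fragments, and its percentile went from 73.2 to 41.1 while the local background was 0.497 and 1.0 control fragments. At the TSS the summit had 49 fragments in siCONT and 52 in siDLEU1 cells, which is a coverage of 32.9 and 27.1. By fragments the gene changed by −10.9 points, beside −28.4 by fold enrichment, and the part of the control reads in this difference was not tested. H3K4me3 at NFKB1 ranked at 93.3 and 95.5, with 119 and 118 fragments.

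REL, the c-Rel subunit, had an upstream region and one over exon 1. H3K27ac coverage went from 69.9 to 40.2 at the upstream summit and from 65.9 to 37.05 at exon 1, so both were lower. Their ranks parted, from 79.5 to 47.6 upstream and from 57.5 to 62.1 at exon 1. The local background was 0.497 and 1.0 control fragments at the upstream region, and 1.0 and 0.528 at exon 1. The gene's percentile was 79.5 and 62.1, a change of −17.3 points by fold enrichment and −9.83 by fragments. H3K4me3 ranked at 89.9 and 81.8. At its upstream region the rank went from 89.9 to 7.18 with coverage at 49.4 and 42.3, beside a local background of 0.532 and 4.0 control fragments. The divergent lncRNA REL-DT starts 181 bp from a REL TSS, so these regions are shared with it.

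RELA, which encodes p65, had the smallest change in H3K27ac rank of the 10 genes. Its H3K27ac percentile was 86.0 and 80.6, with 165 and 124 fragments, and the region in intron 1 kept its place, at 892 and 680 bp. H3K4me3 ranked at 91.6 and 95.3, and 2 siCONT regions of 961 and 1195 bp were called as 1 region of 2053 bp in siDLEU1 cells. Its coverage was 105 with both siRNAs, a ratio of 0.998 (0.810 to 1.23). RELA-DT starts 72 bp from a RELA TSS.

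NFKBIA, which encodes IkBα, ranked highest of the 10 genes by fold enrichment for both marks and both siRNAs. By summit coverage RELA was higher for H3K27ac in siDLEU1 cells, at 64.7 against 54.3. Its H3K27ac region over exon 1 ranked at 99.0 in siCONT and 90.8 in siDLEU1 cells, a change of −8.18 points that sits close to the top of the scale. The fragments at its summit numbered 179 and 104, and by fragments the change was −15.1 points. The width was 1303 and 1201 bp, and the kB match at −81 was inside the region with both siRNAs. H3K4me3 there ranked at 99.9 and 99.99, with 247 and 246 fragments. NFKBIA thus combined a lower H3K27ac summit with an H3K4me3 summit near the top of both lists.

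NFKBIE, which encodes IkBε, had weak regions in exon 1. H3K27ac had 40 and 31 fragments and ranked at 31.2 and 14.3. H3K4me3 had 27 and 21 fragments and ranked at 27.2 and 19.9, while its coverage, which allows for depth, was 12.8 and 13.7. With so few fragments the interval of its H3K27ac ratio, 0.364 to 0.986, was the widest of the 9. Its H3K27ac change of −17.0 points was −6.96 with a window of 3 kb, which does not keep it past 10 points. At a −log10 q of 10 or more it was −9.10. No siDLEU1 region passed there, so −9.10 is the whole siCONT rank and could not pass 10 points. With the wider window its H3K4me3 change was 13.6 points.

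NFKBIZ encodes IkBζ, a nuclear IkB protein that acts on a subset of NF-kB targets. The H3K27ac region in intron 1 went from 1621 to 1076 bp and from percentile 90.6 to 61.9, with 126 and 94 fragments. The local background there was 0.497 and 1.0 control fragments, and the change was −28.6 points by fold enrichment and −7.02 by fragments. Another annotated TSS of the gene had its own H3K27ac region, with the summit at −21704 bp of the canonical one in siCONT cells, and it ranked at 49.0 and 42.2. The strongest H3K4me3 region, at 93.6, lay at that TSS in siCONT cells and at the canonical TSS, at 89.5, in siDLEU1 cells.

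TNFAIP3 encodes A20, which removes activating ubiquitin chains from upstream adaptors. The H3K27ac percentile was 90.3 in siCONT and 70.7 in siDLEU1 cells. The region was 2266 bp wide and ran over the TSS in siCONT cells, and in siDLEU1 cells it was 1134 bp wide and began 58 bp past it. A region of 471 bp upstream, at percentile 1.55 by fold enrichment, was not called in siDLEU1 cells. It had 46 fragments in siCONT cells, beside a local background of 3.0 control fragments. The summit in intron 1 had 134 and 75 fragments, and by fragments the change was −28.9 points, larger than the −19.6 by fold enrichment. H3K4me3 ranked at 90.5 and 87.5, with 114 and 89 fragments and a coverage of 54.1 and 57.9. The lncRNA WAKMAR2 starts 445 bp from a TNFAIP3 TSS.

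BIRC3, which encodes the ubiquitin ligase cIAP2, was the 1 gene of the 10 with an H3K27ac region in siCONT cells and none in siDLEU1 cells, beside 5.61% of the 13589 genes with a siCONT region. The region was 455 bp wide, had 22 fragments at its summit 2 bp from the TSS and ranked at 9.96. Signal below the authors' threshold would also go uncalled, so no call is not a level of 0. H3K4me3 had the largest change in rank of the 10 genes, from 54.0 to 18.6. With regions at a −log10 q of 10 or more alone, no siDLEU1 region passed and the siCONT region ranked low. The change of −2.04 points is then that whole siCONT rank, so it marks the loss of the call and not a smaller fall. With 1 TSS per gene the change at NFKB2, −46.8, was larger than the −35.5 at BIRC3. It sets the siCONT region of 2037 bp at NFKB2, with its summit in intron 2, against an upstream siDLEU1 region of 399 bp. The latter ranked at 31.0, so the 2 summits lie at different places. At BIRC3 the upstream H3K4me3 region, the strongest in siCONT cells, had 56 and 26 fragments. Its width was 434 and 295 bp, while the strongest siDLEU1 region of BIRC3 lay in intron 1. None of the 10 genes lost its last H3K4me3 region, beside 3.24% of all genes. The BIRC3 kB match at −199 was inside the upstream H3K4me3 region with both siRNAs, and the one at −135 in siCONT cells alone.

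**Figure D4:**
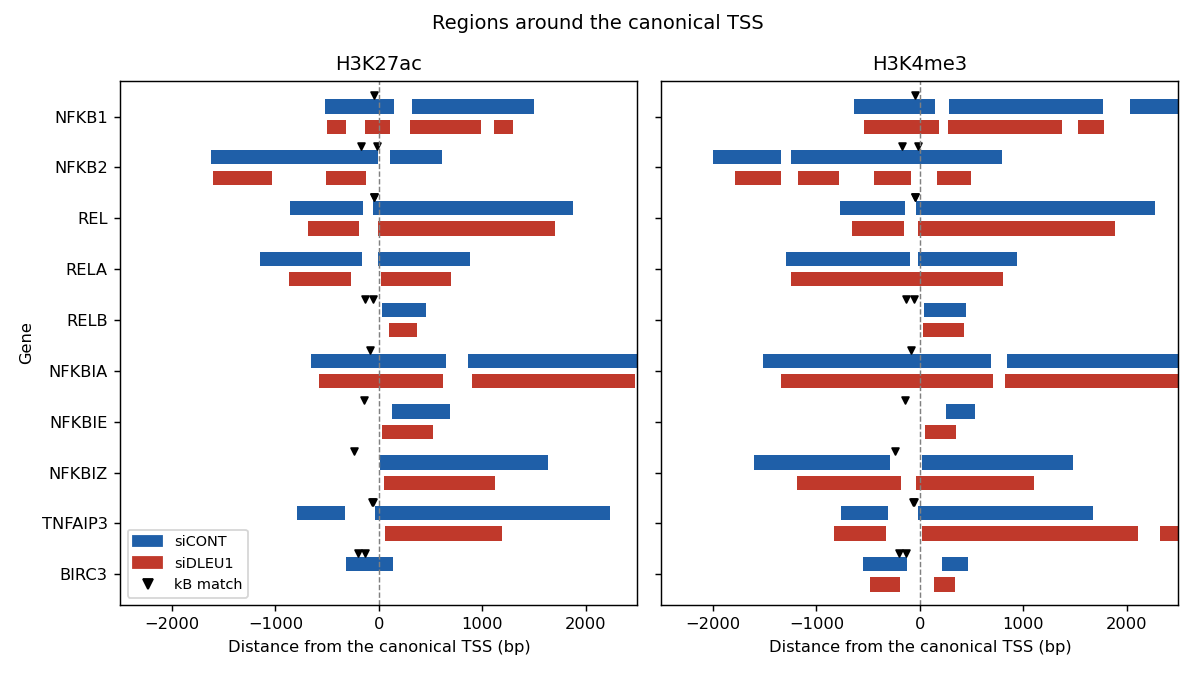
H3K27ac (left) and H3K4me3 (right) regions of the 10 genes from −2500 to 2500 bp of the canonical TSS (dashed line), siCONT in blue and siDLEU1 in red, with kB matches as black triangles. The siDLEU1 H3K27ac regions lie mostly inside the siCONT ones and are shorter, as at NFKB2 and TNFAIP3, and BIRC3 has an H3K27ac region in siCONT cells alone.

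The length called as H3K27ac within the windows of the 10 genes was 16919 bp in siCONT and 11497 bp in siDLEU1 cells, a ratio of 0.680, against 0.766 over all genes. It was lower by 1.5-fold or more at 5 genes (NFKB2, RELB, NFKBIZ, TNFAIP3 and BIRC3), beside 28.1% of all genes. For H3K4me3, 23812 and 21086 bp were covered, a ratio of 0.886 against 0.926, and NFKB2 alone was lower by 1.5-fold or more, beside 12.7% of all genes. The H3K27ac lists had 18 regions at the 10 genes with either siRNA, and their median width was 939.5 and 534 bp, where that of all regions at TSSs was 848 and 649 bp. Of the 18 siCONT regions, 83.3% were overlapped by a siDLEU1 region (95% Wilson interval 60.8 to 94.2), close to the 84.7% of all regions at TSSs. The regions were thus mostly still called, but narrower.

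Of the 14 kB matches, with the overlapping pair of REL counted as 2, 8 lay inside an H3K27ac region in siCONT cells and 3 in siDLEU1 cells. Over the 2255 matches in promoters of all genes with H3K27ac at a TSS, the share was 58.4% and 37.3%. Inside an H3K4me3 region there were 7 and 5 of the 14, beside 50.7% and 52.8% over all. The canonical TSS itself was inside an H3K27ac region at 6 genes in siCONT and at 3 in siDLEU1 cells (NFKB1, REL and NFKBIA), beside 69.6% and 45.3% of all genes with the mark, and inside an H3K4me3 region at 6 and 5, beside 51.8% and 58.8%. H3K27ac regions thus drew back from TSSs and kB matches over all genes, and the counts at the 10 genes are not read as particular to them. Edges of regions depend on depth and on the threshold, so these counts describe the calls and not the factor.

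The other genes of the pathway were taken from a list of 57 receptors, adaptors, kinases, inhibitors and targets. Of the 53 with an H3K27ac region, 24 ranked lower by 10 points or more, beside 36.8% of all genes, and 9 higher, beside 16.8%. Their median change was −8.89 points, against −4.55 over all genes. In summit coverage they stood close to all genes. The median ratio of the 50 called with both siRNAs was 0.611, against 0.617 over all genes. It was 0.565 at the other targets and 0.628 to 0.640 in the remaining groups. Among other NF-kB targets, 9 of 13 were lower by 10 points or more and 1 higher, with a median of −17.7. Among receptors and adaptors 10 of 21 were lower and 5 higher (median −9.94), among kinases 2 and 2 of 10 (−3.55), and among other inhibitors and brakes 3 and 1 of 9 (−0.91). The largest falls in H3K27ac rank were at GADD45B, a stress-response target (89.8 to 41.1), the interleukin-1 receptor gene IL1R1 (57.2 to 12.1) and the deubiquitinase gene CYLD (84.6 to 43.8). The largest rises were at the TWEAK receptor gene TNFRSF12A (61.4 to 86.1), at NFKBID, another nuclear IkB gene, by 20.4 points, and at the adaptor gene TRADD by 19.3. Coverage ratios were 0.438 at GADD45B, 0.464 at IL1R1 and 0.501 at CYLD. At TNFRSF12A, NFKBID and TRADD they were 0.687, 0.803 and 0.640, so these rises are in rank and not in coverage.

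For H3K4me3, 10 of 55 pathway genes with a region ranked lower by 10 points or more and 10 higher, both near the 18.6% and 20.2% of all genes, with a median change of −1.19 points. The largest falls were −46.7 points at CYLD, −41.6 at TRAF5 and −41.5 at TLR3. The largest rises were 20.7 at CSF2, 19.9 at PDLIM2, which had no region in siCONT cells, and 16.6 at IRAK1. CYLD was thus among the largest falls for both marks.

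**Figure D5:**
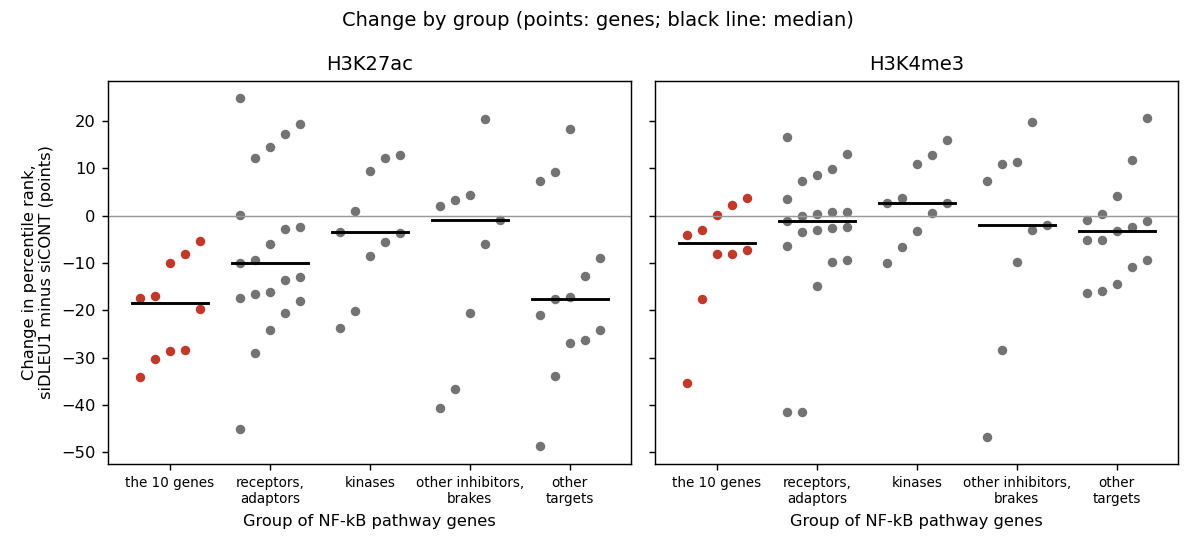
Change in percentile rank (siDLEU1 minus siCONT, points) for the 10 genes (red) and 4 groups of other NF-kB pathway genes (grey), H3K27ac left and H3K4me3 right, with 1 point per gene with a region in either list and a black line at the median. For H3K27ac the medians of the 10 genes and of the other targets, −18.5 and −17.7, are the lowest, and for H3K4me3 the medians lie between −5.76 at the 10 genes and 2.65 at the kinases.

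NFKB2, with the largest absolute change of the 10 in H3K27ac rank by fold enrichment, was compared with all genes over its 4 percentiles. The nearest genes by Euclidean distance were EML3 and ROM1, which share their regions and stood at 6.22 points, and MAP2K5 at 6.36. EML3 and ROM1 went from 56.3 to 25.1 for H3K27ac and from 74.8 to 63.1 for H3K4me3.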

How the data were processed

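ChIP-seq libraries of H3K27ac and H3K4me3 from HSC3 cells transfected with siCONT or siDLEU1 were used, with 1 library in each condition. Ion Proton reads had been aligned by the authors to hg19 using bowtie2, and they called peaks in each library with MACS2, without pooling. Versions, settings and the control used for calling are not given in the sources used here. The deposited lists hold a fold ratio over local background, the −log10 p and −log10 q of MACS2, a display score that was not used, and the summit. The 2 input libraries were not analysed here. One cell type marker is not reported here.

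Regions on chromosomes 1 to 22 and X were set against GENCODE TSSs of 24131 genes with a curated RefSeq transcript (19139 protein-coding, 4992 lncRNA), and the strongest region overlapping 1 kb either side of any TSS was taken. Ranks were computed within a list, and 10 percentile points was set as the change to count. The fragments at each summit were solved from fold and p, which assumes that MACS2 computed both in its usual way. The p of 100% of regions was matched within 0.02, and the number was recovered at 100% of 7684 simulated peaks. Both lists of an siRNA gave the same control depth (7.18 M reads for siCONT and 6.73 M for siDLEU1), so local control signal enters both marks. Shares have 95% Wilson intervals, fragments Poisson intervals and coverage ratios exact conditional intervals, all for counting error only.

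The 10 genes and the pathway list were chosen with earlier results of these data known. All 10 genes were named with their values, with the 3 largest falls and 3 largest rises past 10 points in the pathway list for each mark, and the 3 genes nearest to the one of the 10 with the largest H3K27ac change. As alternatives, regions were kept at a −log10 q of 10 or more, or the analysis was run with a window of 3 kb, 1 TSS per gene, ranks by −log10 p and by fragments, and an overlap of 50% of both regions. Summit coverage was added after the data were seen. Python 3.11.15, numpy 2.4.6, pandas 2.3.3, scipy 1.17.1 and matplotlib 3.10.9 were used.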

Additional observations from a re-analysis of the deposited data

How the results depend on the processing

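With a single library of each siRNA and mark there was no replicate to leave out. No paired analysis was possible because no group holds more than 1 library. Under the alternatives run, the number of the 10 genes lower in H3K27ac rank by 10 points or more stayed between 6 and 8. The share of all genes beside it was computed only for the main ranks (36.8%) and for ranks by fragments (31.0%). The median change of the 10 genes stayed below 0. It was −33.9 points when regions needed a −log10 q of 10 or more, where BIRC3 had no region left and 9 genes gave a value. The median of all genes was then −11.2, itself past 10 points. The count of 8 of 9 genes at that setting is therefore not read as particular to them. At that setting NFKB2, RELB and NFKBIE had no siDLEU1 region left, so their changes are their whole siCONT ranks. In H3K4me3, 1 gene ranked higher by 10 points or more with a window of 3 kb, NFKBIE at 13.6 points. With an overlap of 50% of both regions, 60.7% of the H3K4me3 siCONT regions were overlapped. Among changes at single genes, 84 moved by less than 10 points and 14 by more. With 1 TSS per gene, NFKBIZ H3K27ac was at −6.79 and NFKB2 at −49.9 (H3K27ac) and −46.8 (H3K4me3). These values come from the regions that reach the 1 kb around the 5′ end of the gene. BIRC3 H3K4me3 was at −2.04 with the stricter q, which is its whole siCONT rank, as no siDLEU1 region passed. The causes of the other moves were not tested. Depth limits weak regions most: BIRC3 and NFKBIE had 21 to 56 fragments at a called summit.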
